A study of Mus musculus with 63 samples.

Results

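The 10 genes described here handle lipid export, lipid sensing and lipid storage: Nr1h2, Nr1h3, Ch25h, Abca1, Abcg1, Apoe, Clu, Lpl, Plin2 and Soat1. They were taken by symbol, as 10 of the 55291 gene symbols in the count files. The rule sets no threshold on a measured value, but the genes were chosen with earlier results of these data known. All lay on known chromosomes of GRCm38, for example Abca1 at chr4:53030787-53159895, Apoe at chr7:19696109-19699188, Plin2 at chr4:86648386-86670060 and Ch25h at chr19:34473778-34475164, and all are protein-coding. All 10 had counts and all 10 passed the filter on low counts in every comparison.

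Nr1h3 and Nr1h2 encode the liver X receptors alpha and beta, nuclear receptors that bind oxysterols and, with a retinoid X receptor as partner, switch on genes that move cholesterol out of cells. Ch25h encodes cholesterol 25-hydroxylase, which makes the oxysterol 25-hydroxycholesterol. Abca1 and Abcg1 encode transporters in the cell membrane that load cholesterol and phospholipid onto lipoprotein particles. In the brain these particles are built on apolipoprotein E (Apoe) and clusterin (Clu, also called apolipoprotein J), which glia secrete and other cells take up through lipoprotein receptors. Lpl encodes lipoprotein lipase, which releases fatty acids from lipoproteins. Soat1 encodes the enzyme that esterifies cholesterol for storage, and Plin2 encodes perilipin 2, a coat protein of lipid droplets. After axons degenerate, glia take up and recycle the lipid of myelin and membranes, and LXR target genes are known to respond in phagocytes that have taken up such debris.

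The upstream sequences of 3 members are shown because these 3 were called at more than 2-fold after lesion in the DG of both genotypes. The liver X receptor dimer binds a direct repeat of AGGTCA with 4 bases between the copies, so each sequence was searched on both strands for AGGTCA, any 4 bases, AGGTCA. The sequences run 5′ to 3′ on the gene's strand, which is the minus strand for all 3, and end at the last base before the annotated transcript start (RefSeq promoter windows, GRCm38.p6). Capitals mark the pair of hexamers of the 1 match with 3 mismatches.
Abca1 (chr4:53159896-53160145): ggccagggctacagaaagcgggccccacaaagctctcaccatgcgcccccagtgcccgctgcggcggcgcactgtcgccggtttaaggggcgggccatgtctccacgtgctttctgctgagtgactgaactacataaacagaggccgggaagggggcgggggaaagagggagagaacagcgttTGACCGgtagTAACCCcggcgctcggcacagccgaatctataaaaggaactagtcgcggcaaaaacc
Ch25h (chr19:34475165-34475398): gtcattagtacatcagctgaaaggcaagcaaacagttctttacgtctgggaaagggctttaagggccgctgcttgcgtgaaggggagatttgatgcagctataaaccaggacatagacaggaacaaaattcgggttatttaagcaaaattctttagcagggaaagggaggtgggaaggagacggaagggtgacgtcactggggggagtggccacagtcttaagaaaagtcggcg
Plin2 (chr4:86670061-86670309): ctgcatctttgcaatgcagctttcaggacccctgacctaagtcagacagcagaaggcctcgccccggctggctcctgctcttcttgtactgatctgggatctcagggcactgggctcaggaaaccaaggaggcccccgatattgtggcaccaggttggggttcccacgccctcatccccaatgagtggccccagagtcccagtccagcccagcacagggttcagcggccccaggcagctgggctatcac

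Promoter entries were at hand for 7 of the 10 members, with 10 windows in all, and none for Abcg1, Lpl and Clu. Apoe and Nr1h3 had more than 1 window each, some of them overlapping. The search covered the 250 bases upstream of each start, and no introns or more distant sequence were searched as such. With at most 2 mismatches, 0 of the 10 member windows held the repeat, against 843 of 32851 windows of all genes (2.57%). A looser search with 3 mismatches, chosen after that result, found it in 1 of 10 member windows and in 18.5% of all windows. The Abca1 match, GGGTTACTACCGGTCA on the opposite strand, lay 52 to 67 bases upstream of the start. A match is a run of letters, not a measured binding site.

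RNA was sequenced from entorhino-hippocampal tissue cultures, slices of mouse brain that keep the entorhinal cortex, the dentate gyrus (DG) and CA3 in one dish. In the regional experiment the DG or CA3 was cut with a scalpel from 1 culture per library, from wildtype C57BL/6J (Synpo+/+) or B6.129-Synpotm1Mndl/Dllr (Synpo-/-) mice. Cultures were made at postnatal day 3 to 5 from mice of either sex and kept at least 18 days in vitro. Lesioned cultures had their perforant path transected by an entorhinal cortex lesion (ECL) and were taken 3 days after it (3 dp ECL), and controls were not lesioned. The Synpo+/+ libraries comprised 4 control and 7 ECL from DG, and 2 control and 3 ECL from CA3. The Synpo-/- libraries comprised 7 control and 4 ECL from DG, and 6 of each from CA3. In the second experiment, an antibody to synaptopodin pulled RNA out of lysates of 6 pooled cultures (coIP), next to an aliquot of the lysate before the pull-down (input). It had 5 control and 5 ECL preparations of Synpo+/+, and 2 preparations labelled Synpo-/- whose lesion state the labels do not give. The labels do not say which regional libraries share a mouse or a litter, so p-values measure the spread between these cultures.

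Total counts were 14055930 to 46043990 in the 39 regional libraries and 11601154 to 53682143 in the 24 of the coIP experiment. Values are CPM (reads of a gene scaled to a common library size) after TMM scaling within each experiment, so levels are compared only within an experiment. Synpo, the gene that the Synpo-/- allele targets, had 51.8 ± 9.32 CPM (SD, n = 7) in control DG, against 22.5 ± 2.36 (n = 4) in Synpo+/+. The level was thus higher under the Synpo-/- label. Genotypes are therefore given by label. Prox1, a marker of DG granule cells, had 120.2 to 217 CPM in 21 of 22 DG libraries, and 15.5 CPM in the library labelled Synpo+/+ DG ECL replicate 5, which is inside the 12.7 to 44.0 CPM of the 17 CA3 libraries. Ttr, the main choroid plexus transcript, had 2284 and 6010 CPM in Synpo+/+ DG ECL replicates 1 and 3 and 8529 CPM in Synpo-/- DG ECL replicate 2, against at most 398 CPM in any other library. Results are given with and without these 4 libraries where that changed a call.

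Per kilobase of exon, Apoe and Clu stood far above the other members. In Synpo+/+ control DG the mean level was 351 CPM per kb for Apoe and 232 for Clu. Abca1, Lpl, Abcg1 and Soat1 followed with 7.11, 6.78, 6.74 and 5.34 CPM per kb. The storage and receptor genes were lower, at 3.38 for Plin2, 2.22 for Nr1h2 and 0.819 for Nr1h3, and Ch25h was lowest at 0.432. Apoe lay at the 99.8th percentile of the 49287 genes detected there, and Ch25h at the 54.0th. Ch25h rested on 2 to 85 reads per regional library. Counting ignored strand. An antisense gene overlaps the span of each of Ch25h, Soat1 and Nr1h3 (Gm26902 at Ch25h, Gm37648 at Soat1). Abcg1 and Nr1h3 also overlap a small gene (Gm25447 at Abcg1, Gm13783 and Gm23390 at Nr1h3). Where exons overlap, reads cannot be told apart by strand, and whether exons do overlap was not examined.

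**Figure D1:**
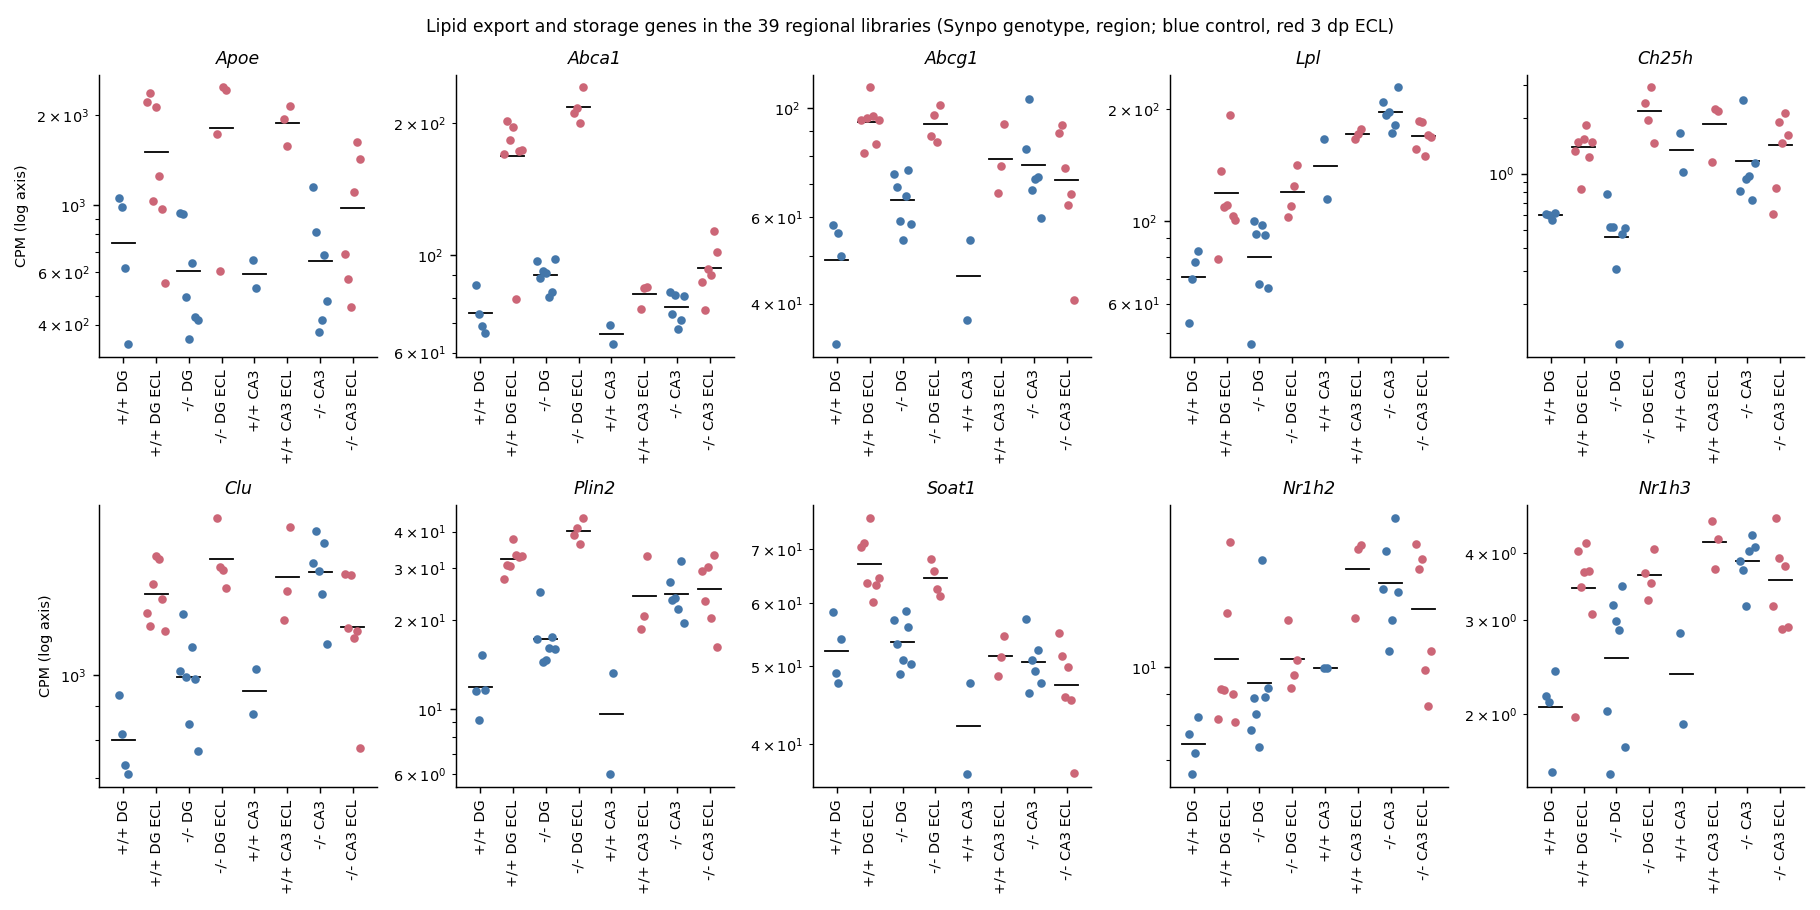
Level of each member in the 39 regional libraries, in CPM on a log axis, by Synpo genotype (+/+ or -/-) and region; each point is a library, blue control and red 3 dp ECL, and black bars are group means. The DG values of Abca1 and Plin2 separate by lesion with 1 exception (Synpo+/+ DG ECL replicate 5 for Abca1). Apoe spans 345 to 2469 CPM, and its control and ECL groups overlap except in Synpo+/+ CA3.

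The first question was how the members stood in the DG, where the perforant path ends, 3 days after its transection. In Synpo+/+ DG 8 of 10 members were called higher and 0 lower at an adjusted p under 0.05 (edgeR quasi-likelihood test, Benjamini-Hochberg over all 23720 genes tested). Across the whole table the shares were 7.86% higher and 4.31% lower, and the median log2 fold change was 0.81 for the members and -0.00 for all genes. Synpo-/- DG had 6 of 10 members called higher and 0 lower, against 5.17% and 3.36% of all 23310 genes, with medians of 0.54 and 0.01. Plin2, Abca1, Ch25h, Abcg1 and Clu were called in both genotypes. In bulk tissue, more cells of a type and more RNA per cell cannot be told apart.

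Among the receptors, Nr1h3 had 2.16, 2.11, 1.56 and 2.41 CPM in the 4 Synpo+/+ control DG libraries, and 1.97, 3.68 and 4.18 CPM as the lowest, median and highest of the 7 ECL libraries. In 6 of 7 ECL libraries the value was above every control. The log2 fold change was 0.71 ± 0.22 (SE), with an adjusted p of 0.0461. This call was the least secure of the 8: it held in 1 of 11 fits that left out a library (without ECL replicate 1, adjusted p = 0.0251), and the adjusted p in the other 10 ran up to 0.139. The log2 fold change of Nr1h3 in Synpo-/- DG was 0.47 ± 0.22 with an adjusted p of 0.225. Nr1h2 was not called in either genotype, with log2 fold changes of 0.44 ± 0.18 (adjusted p = 0.110) and 0.10 ± 0.16 (adjusted p = 0.807).

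Ch25h, the oxysterol enzyme, had 0.611, 0.602, 0.567 and 0.614 CPM in the 4 Synpo+/+ control DG libraries and 0.830, 1.48 and 1.84 CPM as lowest, median and highest of the 7 ECL libraries. The groups did not overlap. It rose by a log2 fold change of 1.19 ± 0.28 (adjusted p = 0.0169), a call lost without control replicate 3 (adjusted p = 0.0592) or control replicate 4 (0.0565). In Synpo-/- DG it had 0.122, 0.508 and 0.777 CPM as lowest, median and highest of 7 controls, and 2.40, 1.94, 2.91 and 1.46 CPM in the 4 ECL libraries. Again all ECL libraries were above all controls, and the log2 fold change of 2.15 ± 0.34 (adjusted p = 0.000915) was the largest of any member in the DG.

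The exporter Abca1 had 85.7, 73.4, 69.1 and 66.7 CPM in Synpo+/+ control DG, and 6 of the 7 ECL libraries had 170 to 203 CPM. The seventh, replicate 5, had 79.4 CPM, inside the control range, and is the DG library with Prox1 at the level of CA3. With it the log2 fold change was 1.17 ± 0.20 (adjusted p = 0.00250), and without the 3 Synpo+/+ libraries of atypical Prox1 or Ttr it was 1.31 (adjusted p = 3.36e-05). The lowest, median and highest of the 7 Synpo-/- DG controls were 80.5, 91.2 and 98.1 CPM, and the 4 ECL libraries had 211, 217, 199.7 and 241 CPM. Every ECL library was above every control, and Abca1 rose by 1.23 ± 0.09 on the log2 scale (adjusted p = 5.75e-07), the smallest p of any member in any lesion comparison.

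Abcg1, the second exporter, had 57.8, 33.1, 55.7 and 50.1 CPM in Synpo+/+ control DG and 81.0, 94.7 and 110 CPM as lowest, median and highest of the ECL libraries. It rose by 0.91 ± 0.14 (adjusted p = 0.00139), with no overlap between groups. The Synpo-/- DG controls spanned 54.0 to 75.0 CPM and the 4 ECL libraries had 87.7, 96.8, 85.6 and 102 CPM. The rise there was 0.47 ± 0.10 (adjusted p = 0.00833), again without overlap.

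In Synpo+/+ DG Apoe had the widest relative spread of the members, with an SD of 44.2% of the mean in controls and 47.9% after ECL. In Synpo-/- DG controls Ch25h spread more, at 44.0% against 41.2% for Apoe. In Synpo+/+ control DG Apoe had 1055, 987, 617 and 345 CPM, and in the 7 ECL libraries 552, 1252 and 2362 CPM as lowest, median and highest. Only 4 of 7 ECL libraries were above every control, and the log2 fold change of 0.97 ± 0.36 did not pass (adjusted p = 0.0843, and 0.0396 without ECL replicate 7). The 7 Synpo-/- DG controls had 358, 493 and 944 CPM as lowest, median and highest. The 4 ECL libraries had 1724, 602, 2469 and 2423 CPM, of which the lowest, replicate 2, was inside the control range. Apoe was called there, with a log2 fold change of 1.54 ± 0.32 (adjusted p = 0.00592). Replicate 2 is also the library with 8529 CPM of Ttr, and without it the log2 fold change was 1.85 (adjusted p = 0.000405).

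Clu was steadier. It had 935, 816, 734 and 710 CPM in Synpo+/+ control DG and 1168, 1302 and 1514 CPM as lowest, median and highest of the ECL libraries, a rise of 0.70 ± 0.12 (adjusted p = 0.00239) without overlap. Clu had, in Synpo-/- DG, 770, 996 and 1235 CPM as lowest, median and highest of the controls and 1726, 1455, 1442 and 1353 CPM in the ECL libraries. The rise was 0.55 ± 0.12 (adjusted p = 0.00805), also without overlap.

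Lpl had 53.3, 70.0, 77.6 and 83.1 CPM in Synpo+/+ control DG and 79.2, 109 and 193 CPM as lowest, median and highest of the ECL libraries. The highest value was again that of replicate 5, inside the CA3 range of this gene. Lpl was called at 0.71 ± 0.19 (adjusted p = 0.0295), and at 0.63 without the 3 atypical libraries (adjusted p = 0.0167). The call was lost when any 1 of the 4 controls was left out, with adjusted p from 0.0560 (control replicate 4) to 0.0831 (control replicate 2). For Lpl the Synpo-/- DG controls spanned 46.8 to 100.3 CPM and the ECL libraries 103 to 142 CPM. They did not overlap, but the log2 fold change of 0.53 ± 0.17 missed the threshold (adjusted p = 0.0602, and 0.0361 without control replicate 2).

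Of the storage genes, Plin2 had the smallest p in Synpo+/+ DG. It had 11.5, 9.15, 15.2 and 11.6 CPM in the controls, and 27.5, 32.7 and 37.9 CPM as lowest, median and highest of the ECL libraries. The rise was 1.42 ± 0.14 (adjusted p = 3.36e-05), and every ECL library was above every control. Plin2 in the Synpo-/- DG controls had 14.4, 16.1 and 24.9 CPM as lowest, median and highest, and the ECL libraries had 39.1, 41.2, 36.3 and 44.6 CPM. Plin2 rose there by 1.18 ± 0.13 (adjusted p = 4.95e-05), without overlap. Soat1 moved least: it had 47.7 to 58.4 CPM in Synpo+/+ control DG and 60.2 to 76.6 CPM after ECL, a log2 fold change of 0.33 ± 0.10 (adjusted p = 0.0452). That call held in 2 of 11 fits that left out a library (without control replicate 1 or ECL replicate 5) and the adjusted p in the other 9 ran up to 0.141. It was also not called without the 3 atypical libraries (adjusted p = 0.0528). In Synpo-/- DG, Soat1 had 49.0 to 58.6 CPM in controls and 61.2 to 68.1 CPM after ECL, with a log2 fold change of 0.22 ± 0.08 (adjusted p = 0.108).

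Without the atypical libraries 7 members were called in Synpo+/+ DG and 6 in Synpo-/- DG. Leaving out 1 library at a time gave 4 to 7 calls in Synpo+/+ DG, with the 4 found without control replicate 3 or control replicate 4 and 5 without control replicate 2. In Synpo-/- DG it gave 6 to 7 calls, and the 6 members named above were called in all 11 such fits.

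Marker genes of glia moved in the same libraries. Of 12 microglia markers, 11 were called higher in Synpo+/+ DG (summed level 474 to 657 CPM in controls, 1197 to 1535 after ECL) and 9 in Synpo-/- DG (561 to 1212 against 1228 to 1676 CPM). Of 8 astrocyte markers, 6 and 7 were called higher, with summed levels of 4473 to 5235 against 6994 to 9051 CPM in Synpo+/+. Of 4 choroid plexus markers, 1 and 3 were called higher, and 2 of 5 perivascular macrophage and 1 of 6 oligodendrocyte markers in each genotype. Of 5 endothelial markers, 2 were called lower in Synpo+/+ DG (median -0.47) and none in Synpo-/- DG, where 1 had an unadjusted p under 0.05 and DESeq2 called 0. The 5 neuron markers had a median log2 fold change of 0.07 in Synpo+/+ and -0.15 in Synpo-/- DG. No microglia or astrocyte marker was at 0 in any group. What part of the members' difference goes with these cells was not tested.

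**Figure D2:**
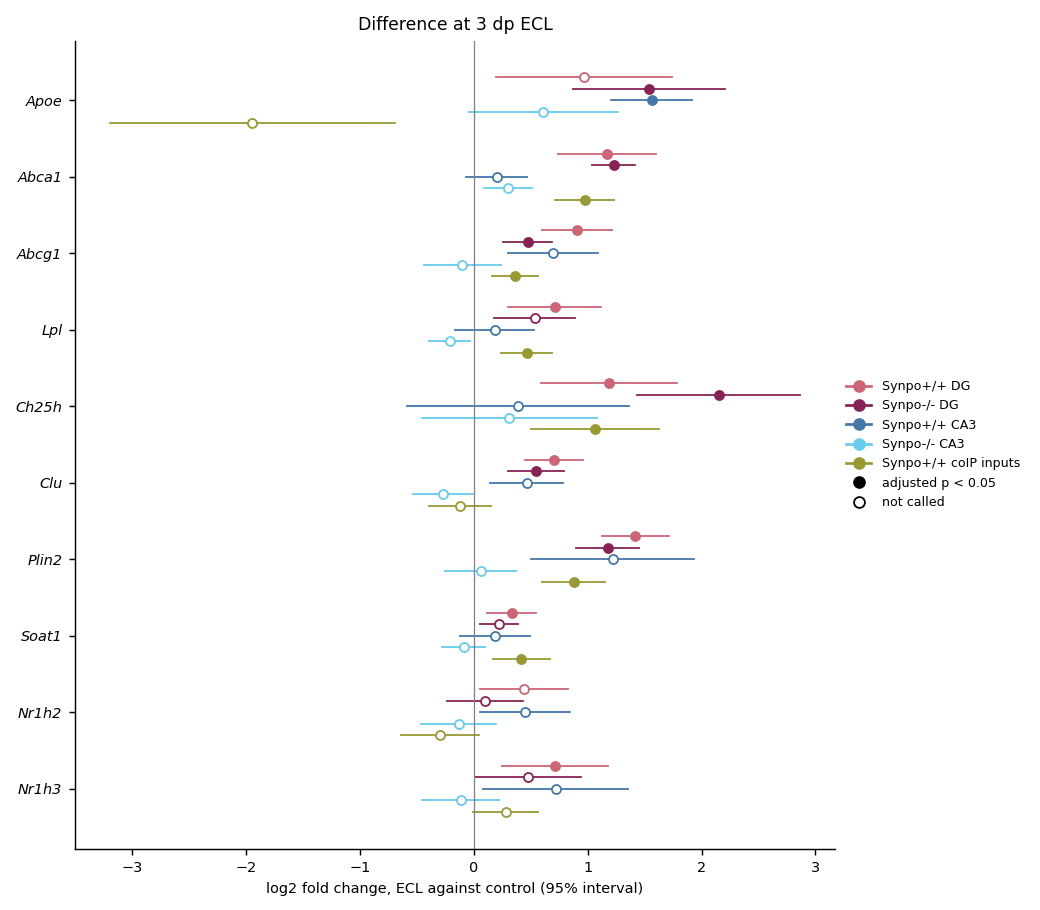
Log2 fold change of each member at 3 dp ECL against control with its 95% interval in 5 comparisons (edgeR); filled points have an adjusted p under 0.05 and open points were not called. In the DG all points lie to the right of 0, in Synpo-/- CA3 no point is filled, and Apoe in the whole-culture inputs lies at -1.95.

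CA3 pyramidal cells receive perforant path input on their outer dendrites and mossy fibers from the DG. In Synpo+/+ CA3, with 2 controls and 3 ECL libraries, 1 of 10 members was called higher and 0 lower, against 1.50% and 0.273% of all 22340 genes tested. That member was Apoe, with 655 and 528 CPM in the controls and 1934, 1578 and 2137 CPM after ECL. The log2 fold change was 1.56 ± 0.16 (adjusted p = 0.0137). The call was lost without ECL replicate 1 (adjusted p = 0.0596) or ECL replicate 2 (0.0557). All 10 members had a positive log2 fold change, with a median of 0.46 against -0.01 for all genes, and 9 of 10 lay higher after ECL with no overlap between the groups. With groups this small, 30.2% of all genes tested did so, and 16.7% lay lower with no overlap. Plin2 had 5.99 and 13.2 CPM against 18.6, 20.6 and 33.1 CPM, a log2 fold change of 1.22 ± 0.32 (adjusted p = 0.0768). Abcg1 had 37.1 and 53.9 CPM against 67.3, 76.5 and 92.8 CPM, with 0.69 ± 0.18 (adjusted p = 0.0727). Without control replicate 2 both were called (adjusted p = 0.0363 and 0.0406), which made 3 calls in all. Abca1 had 69.2 and 62.8 CPM against 75.4, 84.4 and 84.6 CPM, a log2 fold change of 0.20 ± 0.12 (95% interval -0.07 to 0.47, adjusted p = 0.342). On the marker lists, 2 of 12 microglia markers were called higher, with a median log2 fold change of 0.48. Of the 12, 6 had an unadjusted p under 0.05 and DESeq2 called 4. No marker of the other 8 lists was called by edgeR. At an unadjusted p under 0.05 were 3 of 8 astrocyte, 2 of 5 perivascular macrophage and 2 of 4 dentate granule cell markers. So were 2 of 5 CA3 pyramidal cell, 1 of 5 endothelial and 1 of 5 neuron markers. DESeq2 called 2 astrocyte markers, and 1 each of the CA3 pyramidal cell, endothelial and neuron markers. The median log2 fold change was -0.86 for dentate granule cell and 0.45 for CA3 pyramidal cell markers. The summed microglia markers had 513 and 857 CPM in the controls and 1051 to 1396 CPM after ECL, without overlap, and their part in the members' difference was not tested.

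In Synpo-/- CA3, with 6 libraries in each group, 0 of 10 members were called by edgeR or by DESeq2, and 3 had an unadjusted p under 0.05. Over all 20772 genes edgeR called 0.0530% higher and 0.0241% lower, DESeq2 called 0.390%, and 7.27% had an unadjusted p under 0.05. Abca1 had 68.1, 77.3 and 82.5 CPM as lowest, median and highest of the controls and 75.0, 91.5 and 114 CPM after ECL. Its log2 fold change was 0.30 ± 0.10 (interval 0.09 to 0.51, adjusted p = 0.533), with 5 of 6 ECL libraries above every control. Plin2 had 19.6 to 31.7 CPM in controls and 16.2 to 33.4 CPM after ECL, with a log2 fold change of 0.06 (interval -0.26 to 0.37). Apoe had 379, 580 and 1148 CPM in controls and 457, 895 and 1619 CPM after ECL, with 0.61 ± 0.31 (adjusted p = 0.718). Beside Abca1, the members at an unadjusted p under 0.05 were Lpl and Clu, both lower after ECL. Lpl had -0.21 ± 0.09 (adjusted p = 0.617) and Clu -0.27 ± 0.13 (adjusted p = 0.684). The median log2 fold change was -0.10 for the members and 0.00 for all genes. On the marker lists, 2 of 6 oligodendrocyte markers were called lower and 1 of 4 choroid plexus markers higher there. All 6 oligodendrocyte markers had an unadjusted p under 0.05 (median log2 fold change -0.73), and DESeq2 called 4. Their part in the members' difference was not tested.

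Whether the lesion difference itself differed between regions was tested as an interaction. In Synpo-/- cultures 3 of 10 members had a larger difference in DG than in CA3, against 1.12% of all 25435 genes called in either direction. Abca1 had an interaction of 0.91 ± 0.14 on the log2 scale (adjusted p = 0.00118), Plin2 of 1.09 ± 0.22 (adjusted p = 0.0128) and Clu of 0.79 ± 0.19 (adjusted p = 0.0349). For Clu the call was lost in 6 of 23 fits without a library: CA3 control replicates 2 and 3, CA3 ECL replicate 4, and DG ECL replicates 1, 2 and 3 (adjusted p from 0.0514 to 0.0801). Ch25h and Lpl had interactions of 1.82 ± 0.51 and 0.72 ± 0.21 that did not pass (adjusted p = 0.0752 and 0.0925). Of the marker lists, 7 of 12 microglia, 4 of 8 astrocyte and 2 of 6 oligodendrocyte markers had a larger difference in DG in the same test.

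In Synpo+/+ cultures 0 of 10 members and 0 of 27783 genes (0%) were called for that interaction by edgeR, and 0 members by DESeq2, with 1 member, Abca1, at an unadjusted p under 0.05. Over all genes DESeq2 called 0.0360% and 4.46% had an unadjusted p under 0.05. The Abca1 interaction was 0.91 ± 0.30 (interval 0.28 to 1.54, adjusted p = 1.00 after rounding). This result turned on the library labelled DG ECL replicate 5. Without it the interaction of Abca1 was 1.03 with an adjusted p of 0.0190, and without all 3 atypical Synpo+/+ libraries 1.055 with an adjusted p of 0.0554. With 2 CA3 controls, simulated 4-fold interactions were recovered for 48.2% of changed genes in this comparison. Smaller interactions, such as the 1.88-fold of Abca1, were not simulated.

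Whether the lesion difference itself differed between the genotypes was tested next. In DG 0 of 10 members were called (edgeR and DESeq2), with 2 at an unadjusted p under 0.05. Of all 26245 genes edgeR called 0.00381% and DESeq2 0.00762%, and 10.4% had an unadjusted p under 0.05. Abca1 differed by 0.03 (interval -0.43 to 0.48) and Plin2 by -0.28 (interval -0.69 to 0.13), coded as Synpo-/- minus Synpo+/+. The widest was Ch25h, with 0.93 (interval 0.05 to 1.81, adjusted p = 0.478). In CA3 0 of 10 members and 0% of 26821 genes were called by edgeR, and 0 members by DESeq2. An unadjusted p under 0.05 was found for 6 members. For all of them the interaction was negative: the lesion log2 fold change, not the level, was lower in Synpo-/-. Over all genes 17.1% had an unadjusted p under 0.05 and DESeq2 called 1.45%. The most negative value was that of Plin2 at -1.19 ± 0.37 (interval -1.96 to -0.42, adjusted p = 0.152). Apoe, which was not among the 6, had -1.01 ± 0.54 (adjusted p = 0.337). 

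The inputs of the coIP experiment gave a second view of the lesion, in lysates of whole Synpo+/+ cultures. There 6 of 10 members were called higher and 0 lower, against 2.45% and 3.16% of all 17951 genes, with medians of 0.39 and -0.00. Abca1 had 45.8 to 62.9 CPM in the 5 controls and 86.2 to 131 CPM in the 5 ECL inputs, a rise of 0.97 ± 0.12 (adjusted p = 0.000742) without overlap. Plin2 had 48.3 to 82.4 against 106 to 149 CPM, a rise of 0.88 ± 0.13 (adjusted p = 0.00233) without overlap. Lpl had 78.1 to 104.8 against 105.0 to 146 CPM, which did not overlap, with 0.46 ± 0.10 (adjusted p = 0.0198), a call lost without ECL replicate 3 (0.0505) or control replicate 2 (0.0645).

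Ch25h, Abcg1 and Soat1 were called in the inputs with less support. Ch25h had 1.27 to 2.29 against 1.82 to 5.31 CPM, with 1.06 ± 0.26 (adjusted p = 0.0306). Its call was lost without ECL replicate 1 or 2 or control replicate 2, 3 or 4, with adjusted p up to 0.0835. Abcg1 (0.36 ± 0.09, adjusted p = 0.0373) kept its call in 1 of 10 such fits, without control replicate 1, and its adjusted p rose to 0.107. Soat1 (0.42 ± 0.12, adjusted p = 0.0487) kept it in 1 of 10, without ECL replicate 4, and its adjusted p rose to 0.129. Between 2 and 5 members were called when 1 input was left out, with 2 without control replicate 2 and 3 without any 1 of ECL replicates 1, 2 and 3 and control replicates 3 and 4. Of the marker lists, 6 of 12 microglia and 1 of 8 astrocyte markers were called higher, and 1 of 5 neuron markers lower. The neuron markers had a median log2 fold change of -0.21, with 3 at an unadjusted p under 0.05 and 2 called by DESeq2.

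Apoe went the other way in these lysates. The 5 control inputs had 399, 1147, 549, 598 and 236 CPM, and the 5 ECL inputs 52.2, 56.6, 57.6, 131 and 458 CPM. In 4 of 5 ECL inputs Apoe was below every control. The log2 fold change was -1.95 ± 0.59 (interval -3.20 to -0.69) and missed the threshold (adjusted p = 0.0685). It passed without ECL replicate 5 (-2.99, adjusted p = 0.00114) or without control replicate 5 (adjusted p = 0.0457). Clu, the other apolipoprotein, had 1429 to 1952 against 1201 to 1848 CPM, with a log2 fold change of -0.13 ± 0.13 (adjusted p = 0.659). The summed astrocyte markers had a median of 24739 CPM in the control and 31647 CPM in the ECL inputs. Within the coIP experiment Apoe spanned 36.9 to 3066 CPM, an 83.2-fold range, against 2.06-fold for Clu and 4.43-fold for Abca1.

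Of the 69 other genes on the 7 lists of lipid handling, 62 could be tested in Synpo+/+ DG, with a median log2 fold change of 0.21. There 17 were called higher and 4 lower, against 7.86% and 4.31% of all genes. Synpo-/- DG had 9 higher and 4 lower of 62, against 5.17% and 3.36%. In Synpo+/+ CA3 edgeR called 0 of 62 and DESeq2 6, with 14 at an unadjusted p under 0.05. Of all 22340 genes tested there, DESeq2 called 1343, and 5348 had an unadjusted p under 0.05. In Synpo-/- CA3 edgeR called 0 of 60 and DESeq2 0, with 11 at an unadjusted p under 0.05, against 7.27% of all genes. In the inputs 2 were higher and 4 lower of 58, against 2.45% and 3.16%. The smallest p in Synpo+/+ DG belonged to Trem2, a microglial receptor for lipids and lipoproteins (0.91 ± 0.12, adjusted p = 0.000322). Lpcat3, a phospholipid remodelling enzyme and LXR target, rose by 0.96 ± 0.15 in Synpo+/+ DG (adjusted p = 0.00133) and by 0.84 ± 0.11 in Synpo-/- DG (adjusted p = 0.000284). Npc2 and Lipa, which free cholesterol in lysosomes, rose by 0.73 ± 0.12 (adjusted p = 0.00215) and 0.67 ± 0.12 (adjusted p = 0.00268) in Synpo+/+ DG.

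The apolipoprotein Apoc1 rose in Synpo-/- DG by 1.07 ± 0.17 (adjusted p = 0.00120) and the scavenger receptor Msr1 by 0.95 ± 0.16 (adjusted p = 0.00183). Stard4, a carrier of cholesterol between membranes, fell by 1.09 on the log2 scale (SE 0.15, adjusted p = 0.000348), from 23.6 to 11.4 CPM on average. In the inputs Msr1 rose by 1.16 ± 0.13 (adjusted p = 0.000437) and Lipa by 0.54 ± 0.07 (adjusted p = 0.000742), while Cyp46a1, the neuronal cholesterol 24-hydroxylase, and Stard4 were lower, with -0.45 ± 0.11 (adjusted p = 0.0293) and -0.54 ± 0.14 (adjusted p = 0.0361).

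By list, 5 of the 12 lipoprotein and lipid receptors were higher and 2 lower in Synpo+/+ DG, and 4 were higher in Synpo-/- DG. Of the 5 other apolipoproteins tested, 2 were higher and 1 lower in Synpo+/+ DG and 1 was higher in Synpo-/- DG. Of 11 LXR partners and targets, 3 were higher in Synpo+/+ DG, and 2 higher and 1 lower in Synpo-/- DG. Of the 7 other ABC lipid transporters, 1 was lower in Synpo-/- DG. For the interaction of region and lesion in Synpo-/-, 4 listed genes were called higher and 1 lower of 64, led by Lipa (0.86 ± 0.19, adjusted p = 0.0195) and the fatty acid receptor Cd36 (2.00 ± 0.46, adjusted p = 0.0244).

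**Figure D3:**
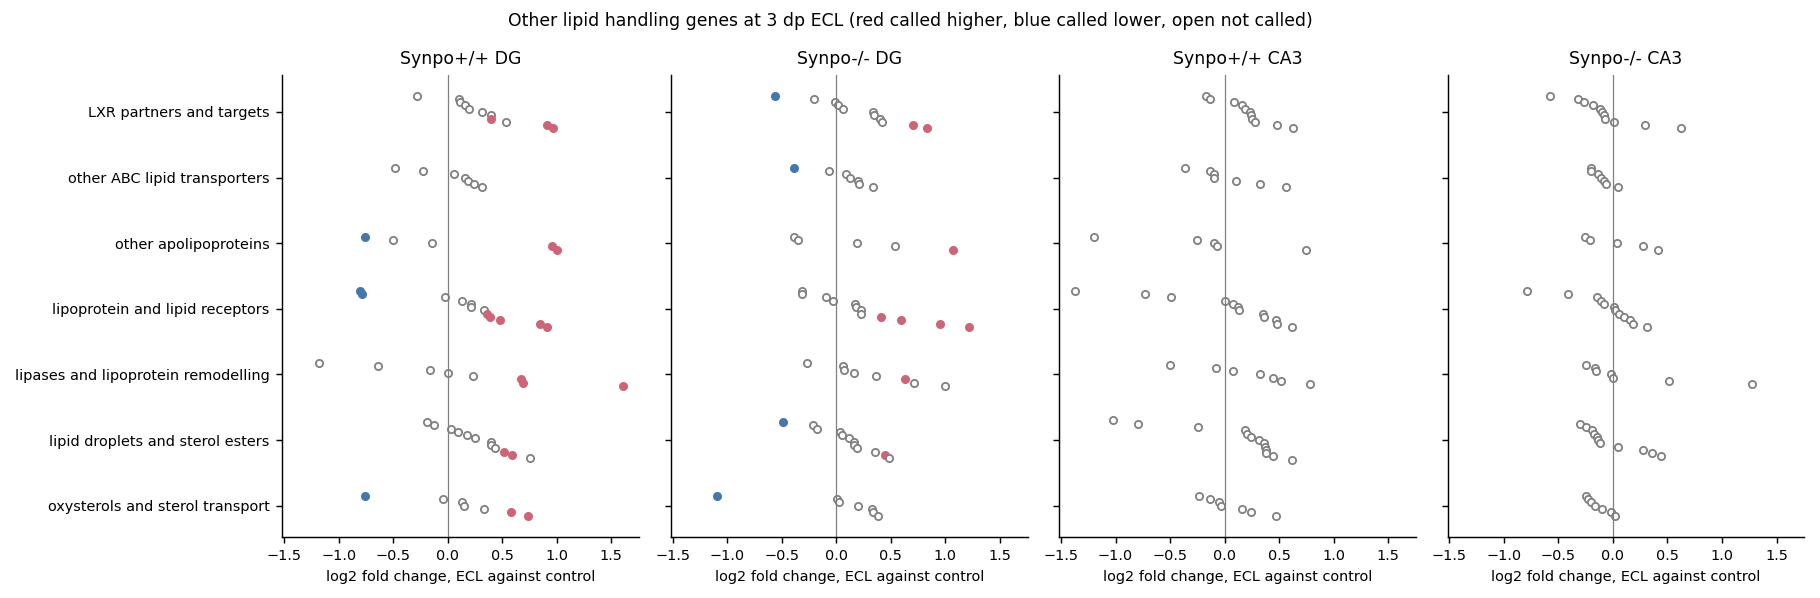
Log2 fold change at 3 dp ECL of the other lipid handling genes, by list, in the 4 regional comparisons; red points were called higher, blue lower, and open points were not called. Filled points appear in the 2 DG panels, with 17 higher and 4 lower in Synpo+/+ and 9 higher and 4 lower in Synpo-/-, and in no CA3 panel.

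In control cultures the regions were compared next. Lpl was the member with the smallest p in both genotypes. In Synpo-/- controls it had 46.8, 91.6 and 100.3 CPM as lowest, median and highest of 7 DG libraries and 173, 195 and 229 CPM of 6 CA3 libraries. The groups were apart, and the log2 difference of DG minus CA3 was -1.19 ± 0.14 (adjusted p = 2.1e-06). In Synpo+/+ controls it had 53.3 to 83.1 CPM in DG and 166 and 115 CPM in CA3, with -0.97 ± 0.19 (adjusted p = 0.00589), lost without CA3 control replicate 1 (-0.68, adjusted p = 0.108). Lpl was the 1 member called in Synpo+/+ controls, 1 lower and 0 higher in DG, against 2.75% and 2.63% of 25656 genes. Ch25h differed by more there, at -1.13 ± 0.47 with no overlap, but was not called (adjusted p = 0.217).

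In Synpo-/- controls 5 members were called lower in DG and 1 higher, against 12.5% and 13.1% of 21408 genes. The higher one was Abca1, with 80.5 to 98.1 CPM in DG and 68.1 to 82.5 CPM in CA3 (0.35 ± 0.08, adjusted p = 0.00244). Beside Lpl, the lower ones were Clu (-0.42 ± 0.10, adjusted p = 0.00455), Plin2 (-0.40 ± 0.12, adjusted p = 0.0240), Nr1h2 (-0.46 ± 0.14, adjusted p = 0.0242) and Ch25h (-1.19 ± 0.38, adjusted p = 0.0273). The Ch25h call rested on CA3 control replicate 2, which had 2.48 CPM against 0.721 to 1.14 CPM in the others, and without it the difference was -0.86 (adjusted p = 0.112). Plin2 lost its call without CA3 control replicate 1 (0.0557) or 5 (0.0784) or DG control replicate 3 (0.0539), and Nr1h2 without CA3 control replicate 2 (0.0571) or 5 (0.0720). Of the marker lists, 6 of 6 oligodendrocyte, 4 of 8 astrocyte and 2 of 12 microglia markers were also called lower in DG. So were 2 of 5 endothelial, 2 of 5 neuron and 4 of 5 CA3 pyramidal cell markers. Called higher in DG were 2 of 5 perivascular macrophage, 2 of 4 choroid plexus and 4 of 4 dentate granule cell markers. In Synpo+/+ controls 3 of 6 oligodendrocyte, 1 of 8 astrocyte, 2 of 5 neuron and 2 of 5 CA3 pyramidal cell markers were lower, and 4 of 4 dentate granule cell markers higher. In Synpo-/- the summed oligodendrocyte markers had 475 to 1387 CPM in DG and 1652 to 2628 CPM in CA3, and the astrocyte markers 4778 to 5676 and 6037 to 7025 CPM. Their part in the members' difference was not tested. Of the other listed lipid genes, 8 were higher and 9 lower in DG of 61 tested (27.9%), near the share of all genes, led by the retinoid receptor Rxrg (1.18 ± 0.19, adjusted p = 0.000104) and the triglyceride synthesis enzyme Dgat2 (0.59 ± 0.10, adjusted p = 0.000304).

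The level order over the 8 regional groups placed the lesioned DG of both genotypes first and second for Abca1, Abcg1, Plin2 and Soat1. Neighbouring groups in the order overlapped in their ranges for all members, with 2 exceptions: Soat1 between the lesioned and the control DG of Synpo-/-, and Ch25h between Synpo-/- control CA3 and Synpo+/+ control DG. Over the 8 group means, the members most alike were Abcg1 and Plin2 (Pearson r = 0.975), Clu and Nr1h3 (0.950), and Lpl and Nr1h2 (0.925). Among 11509 genes with at least 5 CPM on average, the 3 most like Abca1 were Mtmr10 (r = 0.993), the astrocyte glutamate transporter Slc1a3 (0.980) and Gm5089 (0.980). The genes most like Apoe were Arxes1 (0.989), Cib2 (0.988) and Camk1 (0.985), and those most like Plin2 were Ppp2r1b (0.993), the immunoproteasome subunit Psmb8 (0.992) and Parp12 (0.991). For Abcg1 they were Wbp1l (0.997), Stx2 (0.993) and Glb1 (0.992), for Lpl Gpr37 (0.989), Acvr1 (0.989) and Nol4l (0.989), and for Ch25h Tnfrsf12a (0.983), Clba1 (0.971) and Tle3 (0.969). For Clu they were Etfbkmt (0.993), Syngr2 (0.992) and Mmd2 (0.991), for Soat1 Wdr6 (0.979), B4galt1 (0.979) and Gjb2 (0.979). For Nr1h2 they were Degs1 (0.994), Clpb (0.994) and Slc50a1 (0.993), and for Nr1h3 Yipf1 (0.997), Ralb (0.995) and Rnf10 (0.994). These are descriptions over 8 points that share libraries and scaling factors.

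Between the genotypes in control cultures 0 of 10 members were called in either region by edgeR, against 0.0166% of 24143 genes in DG and 0.00413% of 24203 genes in CA3. In DG, 4 members had an unadjusted p under 0.05 and DESeq2 called 0, against 15.5% and 0.973% of all genes. In CA3, 6 had one and DESeq2 called 3 (Plin2, Abcg1 and Clu), against 16.4% and 2.97% of all genes. Plin2 had 5.99 and 13.2 CPM in the 2 Synpo+/+ CA3 controls and 19.6 to 31.7 CPM in the 6 Synpo-/- ones, a log2 difference of 1.29 ± 0.25 (interval 0.75 to 1.83, adjusted p = 0.0838). It passed without Synpo-/- CA3 control replicate 6 (adjusted p = 0.0336) or Synpo+/+ CA3 control replicate 2 (0.0314), and Clu (0.54 ± 0.15, adjusted p = 0.130) passed without Synpo-/- CA3 control replicate 6 (0.0466). Abca1 differed by 0.26 ± 0.09 in DG (interval 0.06 to 0.46, adjusted p = 0.235) and by 0.15 ± 0.12 in CA3 (interval -0.10 to 0.40, adjusted p = 0.537). Of the other listed genes, edgeR called 0 of 62 in DG and 0 of 63 in CA3, with 13 and 16 at an unadjusted p under 0.05 and 0 and 4 called by DESeq2. The Synpo+/+ CA3 controls that enter here are the 2 that also enter the CA3 lesion comparison and the CA3 interaction of genotype and lesion. The values of Plin2 and of the other members in these comparisons thus rest on the same 2 cultures. The 6 members with an unadjusted p under 0.05 here were all higher in Synpo-/- controls. They were the same 6 that had a negative interaction at that p in CA3.

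The last question was whether the members' mRNAs were enriched in the synaptopodin coIP over its input. In Synpo+/+ control preparations 1 member was called higher and 1 lower in the coIP, against 55.0% of 18222 genes called in either direction. In Synpo+/+ ECL preparations 1 was higher and 2 lower, against 58.3% of 18229 genes. In the 2 preparations labelled Synpo-/- 2 were higher and 2 lower, against 31.4% of 20892 genes. With input and coIP of a preparation paired as a block, 6 members were called in Synpo+/+ controls (4 more: Apoe, Abcg1, Clu and Nr1h3), 6 in Synpo+/+ ECL (3 more: Apoe, Ch25h and Soat1) and 4 in Synpo-/-. Under the same block 62.5%, 62.4% and 35.8% of all genes were called, so the members' share was near that of all genes. Of 12 microglia markers, 3, 7 and 5 were called lower in the coIP in the 3 comparisons without the block, and 1 higher in each. Of 8 astrocyte markers 3, 2 and 1 were higher and 0 lower, and of the endothelial markers 2, 2 and 1 were higher and 0 lower. Neuron, dentate granule cell and CA3 pyramidal cell markers were called in both directions over the 3 comparisons. These counts stand beside the 55.0%, 58.3% and 31.4% of all genes called.

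Abca1 was higher in the coIP in all 12 preparations. The ratio of coIP to input was 1.57 to 1.94 in the 5 Synpo+/+ controls, 1.31 to 1.68 in the 5 ECL preparations, and 1.34 and 1.63 in those labelled Synpo-/-. The log2 fold changes were 0.79 ± 0.12 (adjusted p = 5.45e-05), 0.59 ± 0.15 (adjusted p = 0.00400) and 0.53 ± 0.14 (adjusted p = 0.0130). Abca1 has 10363 bases of exon, and with the length trend of each library removed the values were 0.43 (adjusted p = 0.00626), 0.22 (adjusted p = 0.256) and 0.29 (adjusted p = 0.138). In Synpo-/- the call was also lost without input replicate 1 or 2 or coIP replicate 1 (adjusted p up to 0.0704).

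Plin2 was lower in the coIP in all 12 preparations. The ratio was 0.595 to 0.807 in Synpo+/+ controls, 0.451 to 0.683 after ECL, and 0.780 and 0.813 in Synpo-/-. The log2 fold changes were -0.59 ± 0.13 (adjusted p = 0.00179), -0.83 ± 0.12 (adjusted p = 6.35e-05) and -0.36 ± 0.14 (adjusted p = 0.0627, and 0.0439 without coIP replicate 2). Nr1h3 was also lower in all 12, and was called in ECL (-0.48 ± 0.15, adjusted p = 0.0134) and in Synpo-/- (-0.74 ± 0.21, adjusted p = 0.0184). With the length trend removed these values were -0.06 (adjusted p = 0.748) and -0.54 (adjusted p = 0.0663). The Synpo-/- call was also lost without input replicate 1 or 2 or coIP replicate 2 (adjusted p up to 0.0867). Nr1h2 was called lower in Synpo-/- alone (-0.63 ± 0.16, adjusted p = 0.0101, and 0.102 without input replicate 2). Ch25h was lower in the coIP in all 12 preparations too, at ratios of 0.389 to 0.836 in ECL, and Soat1 in all 10 of Synpo+/+, at 0.607 to 0.985 in ECL. With the block both were called in ECL, Ch25h at -0.65 (adjusted p = 0.0286) and Soat1 at -0.37 (adjusted p = 0.00704). Also by the block, Abcg1 (0.20, adjusted p = 0.0268), Clu (0.17, adjusted p = 0.0367) and Nr1h3 (-0.35, adjusted p = 0.0378) were called in Synpo+/+ controls. For Nr1h2, a difference in effect between genotypes was not shown, since the interaction was 0.54 ± 0.31 (adjusted p = 0.766).

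Apoe varied more between preparations than between input and coIP in Synpo+/+. The control preparations had 354, 3066, 692, 1274 and 260 CPM in the coIP beside inputs of 399, 1147, 549, 598 and 236 CPM. The ECL preparations had 82.5, 36.9, 93.0, 166 and 995 CPM beside 52.2, 56.6, 57.6, 131 and 458 CPM. In each set the preparation with the highest input also had the highest coIP value. Unpaired, the log2 fold changes were 0.96 ± 0.56 (adjusted p = 0.154) and 0.85 ± 0.81 (adjusted p = 0.382), and with the preparation as a block 0.58 (adjusted p = 0.00404) and 0.47 (adjusted p = 0.0438). In the preparations labelled Synpo-/- Apoe had 385 and 570 CPM in the inputs and 1448 and 1210 CPM in the coIP of the same preparations, with 1.44 ± 0.18 (adjusted p = 0.000306). That call was lost when all 24 libraries were fitted together (1.48, adjusted p = 0.389). Without input replicate 2, 1 of the 4 calls in Synpo-/- was left.

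The Synpo+/+ control preparations and those labelled Synpo-/-, of unknown lesion state, were compared for their enrichment as an interaction. There 0 of 10 members and 0% of 20621 genes were called by edgeR, and 0 members by DESeq2, with 0 members at an unadjusted p under 0.05. Over all genes DESeq2 called 0.247% and 7.33% had an unadjusted p under 0.05. With the lysate pairs as a block 0 members and 0.296% of all genes were called. Abca1 differed by 0.21 (interval -0.23 to 0.65) and Plin2 by -0.28 (interval -0.77 to 0.21), coded as the enrichment in Synpo+/+ minus that in Synpo-/-. Of the other listed lipid genes, 22 were higher and 10 lower in the coIP of Synpo+/+ controls of 58 tested, 22 and 10 of 57 after ECL, and 17 and 4 of 61 in Synpo-/-. These are 55.2%, 56.1% and 34.4% of the listed genes, near the shares of all genes in the same comparisons. Those with the smallest p were Sorl1, a sorting receptor for lipoproteins, and Fasn, the fatty acid synthase, in controls (0.84 ± 0.08, adjusted p = 1.26e-06, and 1.23 ± 0.14, adjusted p = 3.74e-06). After ECL they were Fasn (1.18 ± 0.10, adjusted p = 1.95e-06) and Abca5 (0.92 ± 0.09, adjusted p = 3.63e-06). In Synpo-/- they were the lysosomal cholesterol transporter Npc1 (1.04 ± 0.15, adjusted p = 0.000542) and Srebf1, the lipogenic transcription factor (1.31 ± 0.19, adjusted p = 0.000595). For the interaction edgeR called 0 of 61 listed genes, with 5 at an unadjusted p under 0.05 and 1 called by DESeq2.

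**Figure D4:**
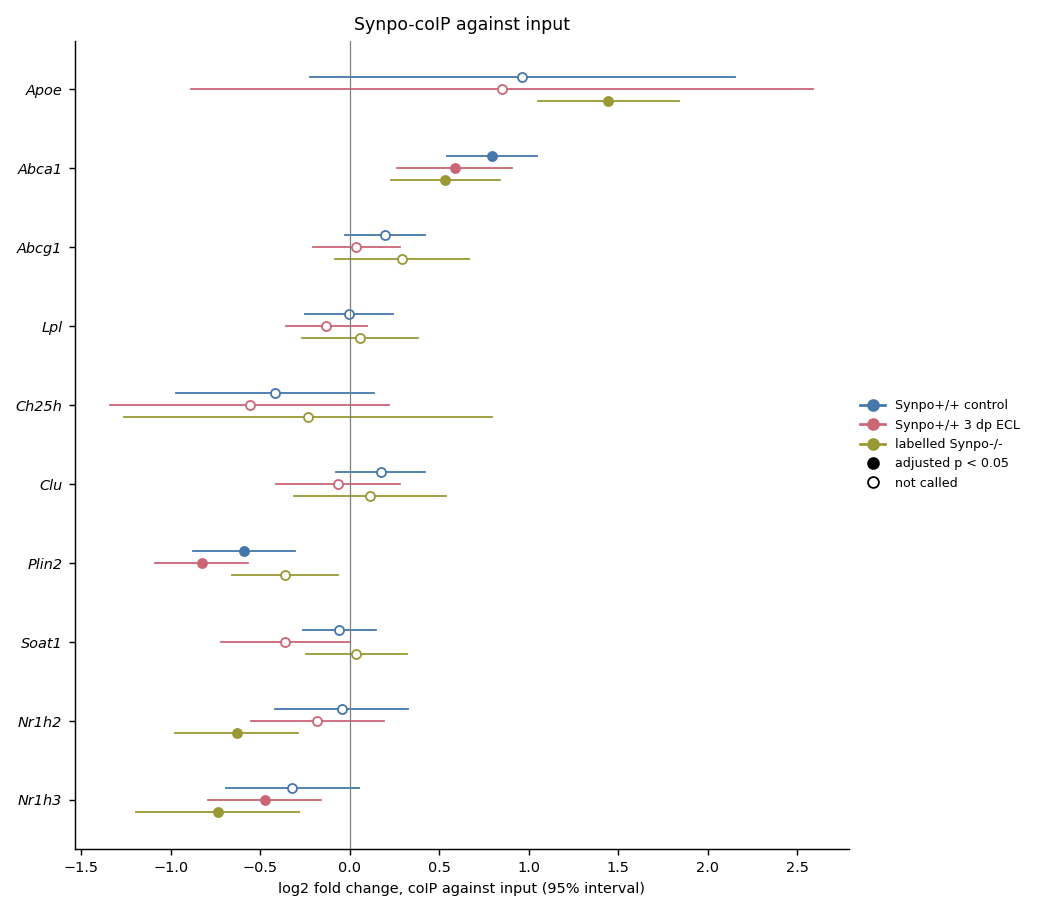
Log2 fold change of each member in the synaptopodin coIP against input with its 95% interval, in Synpo+/+ control, Synpo+/+ 3 dp ECL and the preparations labelled Synpo-/-; filled points have an adjusted p under 0.05. Abca1 is filled above 0 in all 3 and Plin2 lies below 0 in all 3, from -0.83 to -0.36.

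**Figure D5:**
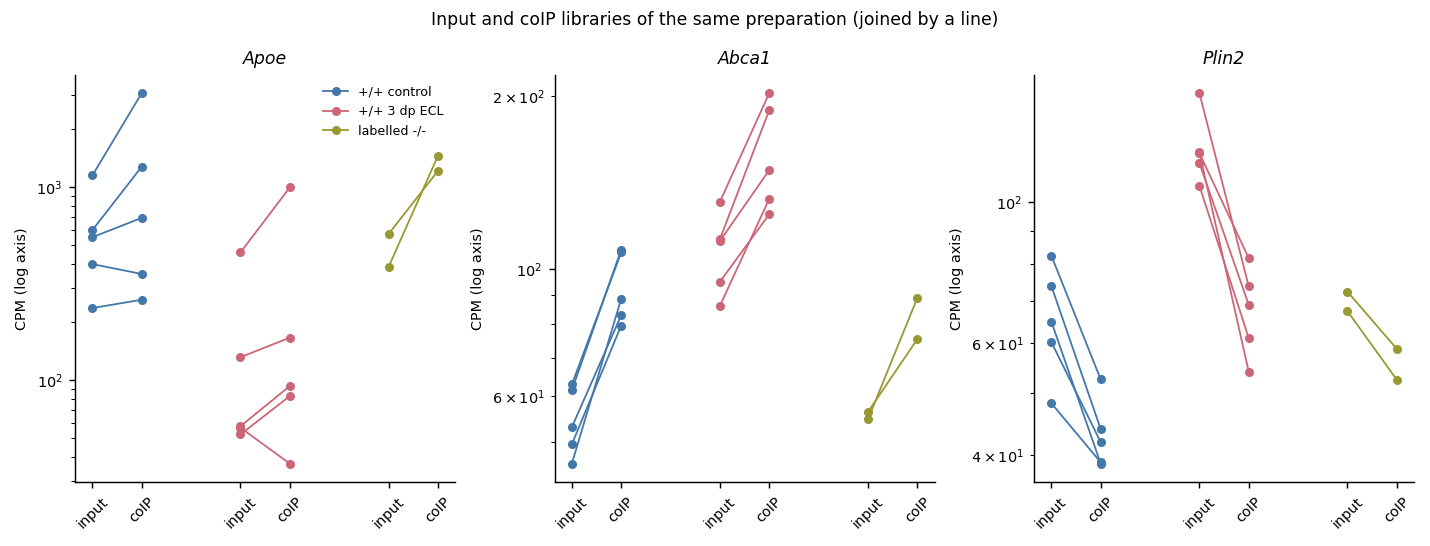
Apoe, Abca1 and Plin2 in the input and coIP library of each preparation, in CPM on a log axis, with a line joining the pair; blue is Synpo+/+ control, red Synpo+/+ 3 dp ECL and olive the preparations labelled Synpo-/-. The lines of Abca1 rise and those of Plin2 fall in all 12 preparations, and Apoe spans 36.9 to 3066 CPM.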

How the data were processed

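The authors trimmed the reads with cutadapt 3.5, aligned them with STAR 2.7.8a and counted them per gene with featureCounts 2.0.1 without strand, on mm10/GRCm38 with a GENCODE annotation, per the submitters' processing notes and methods. The deposited values are raw counts per gene symbol, 1 file per library, and no column was left unmapped (0). All libraries were made with a low input kit with PCR and without molecular identifiers.

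Counts were tested here with edgeR 4.0.16 in R 4.3.3 (filterByExpr, TMM scaling, quasi-likelihood test, Benjamini-Hochberg over all genes tested, threshold 0.05), each comparison in its own fit with its own groups. Standard errors and 95% intervals are on the log2 scale. DESeq2 1.42.0, scaling by RLE, no low count filter, a mean normalized count over 300, all libraries of an experiment in one fit, removal of a trend with exon length, a replicate block and leaving out each library in turn were the alternatives. Leaving out DG libraries with Prox1 under 50 CPM or Ttr over 1000 CPM, and a crossed pairing of the Synpo-/- preparations, were chosen after seeing the data. The members and gene lists were chosen with earlier results of these data known. All members were tested in every comparison, but outside the DG lesion comparisons not every member is given with its values. From the lists, up to 4 called genes of smallest p are named per lesion comparison and 2 in the others, and likeness gives the 3 genes of highest r per member.

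Input and coIP of a preparation come from 1 lysate, and their deviations from the group means correlated at 0.318 to 0.684 in Synpo+/+ controls and 0.148 to 0.708 after ECL, so blocked values are given for these where they change a call. On counts simulated from these libraries, 85.6% of genes changed 4-fold were called in the Synpo+/+ DG comparison. In Synpo+/+ CA3 80.0% were called, and 16.6% of calls there were false. Changes of other sizes were not simulated. Pairs of libraries within a group all differed by more than sampling noise. Intervals and counts cover the spread between cultures, and depth is given in the results.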

Additional observations from a re-analysis of the deposited data

Results flagged for a closer look

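Among 100 sets of samples of 1 group and 1 member, 8 held a value far from the others by Dixon's criterion at 95%, where chance gives about 1 in 20. Apoe had 458 CPM in Synpo+/+ ECL input replicate 5, against 131 CPM in the next highest, and 995 CPM in the coIP of the same preparation, against 166 CPM. Abca1 had 79.4 CPM in the library labelled Synpo+/+ DG ECL replicate 5, against 170 CPM in the next lowest, and this is the DG library with Prox1 at the level of CA3. Abcg1 had 229 CPM in Synpo+/+ control input replicate 1, against 175 CPM. Ch25h had 2.48 CPM in Synpo-/- CA3 control replicate 2, against 1.14 CPM. Plin2 had 24.9 CPM in Synpo-/- DG control replicate 2, against 17.5 CPM. Soat1 had 65.6 CPM in Synpo+/+ control coIP replicate 3, the lowest, against 81.8 CPM. Nr1h2 had 15.1 CPM in Synpo-/- DG control replicate 5, against 9.24 CPM.

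In Synpo-/- cultures the lesion difference was larger in DG than in CA3 for Abca1 (0.91 on the log2 scale), Clu (0.79) and Plin2 (1.09), each by the interaction test. The Clu call was lost in some fits that left out a library. In Synpo+/+ cultures the same interactions were 0.91 for Abca1, 0.18 for Clu and 0.15 for Plin2, none of them called with all libraries.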

How the results depend on the processing

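Counts of members called moved by over 1.5 times as follows. In Synpo+/+ CA3, 1 call became 4 without a filter on low counts, 3 with a replicate block, 3 with DESeq2 and 0 with all libraries in one fit. In Synpo-/- DG 6 became 3 with the replicate block (Apoe, Abcg1 and Clu were no longer called), and in the inputs 6 became 3 with all libraries in one fit. For the interaction of region and lesion in Synpo-/-, 3 became 5 with the block and 5 with DESeq2. Between genotypes in control CA3, 0 became 3 without the filter, 4 with the block, 3 with DESeq2 and 1 with all libraries in one fit. In the coIP, Synpo+/+ controls went from 2 to 6 with the length trend removed and 6 with the block, ECL from 3 to 6 with the block, and Synpo-/- from 4 to 2 with the length trend removed and 1 with all libraries in one fit. The cause was not tested. Leaving out 1 library gave 4 to 7 calls in Synpo+/+ DG, 0 to 3 in Synpo+/+ CA3, 2 to 5 in the inputs, 0 to 1 for the Synpo+/+ region interaction, 0 to 1 for regions in Synpo+/+ controls, 0 to 2 for genotypes in CA3 and 1 to 4 in the Synpo-/- coIP. No called value changed sign. Outside the coIP, same-numbered libraries correlated at -0.45 to 0.50 and in no comparison did every pair exceed 0.1, so the numbers were not taken as pairing. Nearest to it were the regions of Synpo-/- controls, at 0.07 to 0.48, with 3 of 6 libraries closest to their own number. The Synpo-/- preparations, paired by number or crossed, gave 4 calls each.

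Groups of 2 CA3 controls, Ch25h at 2 to 85 reads per regional library, and pools whose animals the labels do not name limit these values.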
